A study of Homo sapiens with 9 samples.

Results

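TCF3, TCF4 and TCF12, which encode the E proteins, and ID1, ID2, ID3 and ID4, which encode their inhibitors, were examined in the TCF3::HLF-positive leukemia line HAL-01. The members were taken by gene symbol and make up 7 of the 62700 genes in the deposited tables, and for TCF3 all 21 transcript rows were kept apart. HAL-01 is a single line of B cell acute lymphoblastic leukemia. All of its cells here, controls included, carried Cas9GFP and were taken on day 13. The 3 sgRNA_96 and 3 sgRNA_97 libraries form the MEF2C Enhancer KO class, in which the HLF binding site of the MEF2C enhancer was targeted, and the 3 SCR1 libraries received a scrambled guide. Replicates are numbered 1, 3 and 4 in each group, and no source used here says that they came from separate cultures, so p-values measure the spread between these libraries, which may be technical. The libraries are pools of cells, in which a change in the number of cells that express a gene and a change in RNA per cell cannot be told apart.

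E proteins are basic helix-loop-helix (bHLH) transcription factors that bind E-box DNA as homodimers or together with tissue-restricted bHLH partners, and they are needed at the first steps of B cell development. The ID proteins have the helix-loop-helix without the basic, DNA-binding region. They pair with E proteins and keep them off DNA. The TCF3 gene makes 2 E proteins, E12 and E47, by choice between alternative exons that encode the bHLH domain. In TCF3::HLF the bHLH domain of TCF3 is lost and the bZIP domain of HLF, a PAR family factor, takes its place.

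TCF3 (ENSG00000071564.19) lies on the minus strand at chr19:1609291-1652615 (hg38). Its transcript rows were called E12 or E47 by which of the alternative bHLH exons the annotation gives them. The exons code for related stretches of protein, so the division of counts between E12 and E47 rows rests on the bases in which they differ and on the exon junctions. Reads from exons that both forms carry also count in these rows. These can include reads from the TCF3 end of TCF3::HLF, so E12 and E47 sums do not measure wild-type TCF3 alone.

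Estimated counts summed to between 15212462 and 29777361 per library. On the first principal component of log2 CPM (counts scaled to 1000000 per library, on library sizes adjusted by TMM) the KO libraries scored from -15.3 to -2.79 and the SCR1 libraries from 18.0 to 21.9. On the second component sgRNA_96 replicate 1 (22.4) and sgRNA_97 replicate 1 (-21.2) stood apart from the other libraries, which lay between -5.82 and 6.20. The 10 markers of B lineage and immature cells summed to 2848 to 3308 TPM (Salmon's length-corrected abundance), with CD34 at a mean of 0.181 TPM. The 3 T cell and 3 erythroid markers were at or near 0. The 5 myeloid markers summed to 12.4 to 19.4 TPM in SCR1 and to 5.57 to 9.99 TPM in KO, most of it S100A8, with ELANE at 0 in every library. The part of these markers in the results below was not tested. MEF2C had a log2 fold change of -0.12 ± 0.04 (SE) in KO (edgeR quasi-likelihood test, adjusted p = 0.062), and HLF, whose rows also take the reads from the HLF end of the fusion, one of -0.12 ± 0.04 (adjusted p = 0.0657).

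Ordered by level per length in SCR1, TCF3 came first at 289 ± 12.2 TPM (SD, n = 3), followed by ID3 at 188 ± 11.8 TPM. TCF4 followed at 99.8 ± 8.15 TPM, TCF12 at 59.3 ± 1.39 TPM and ID2 at 23.4 ± 2.85 TPM. ID1 (0.32 ± 0.366 TPM) and ID4 (0.0108 ± 0.0187 TPM) stood at the bottom. The ranges of neighbours in this order did not overlap over the 3 SCR1 libraries, although ID1 and ID4 rest on 8 counts or fewer per library. Over all 9 libraries the TCF3 and ID3 ranges overlapped, and so did those of ID1 and ID4. The TCF3 level includes reads from the TCF3 end of TCF3::HLF, which has no row of its own in the tables, so wild-type TCF3 and fusion RNA cannot be told apart at the gene level.

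**Figure D1:**
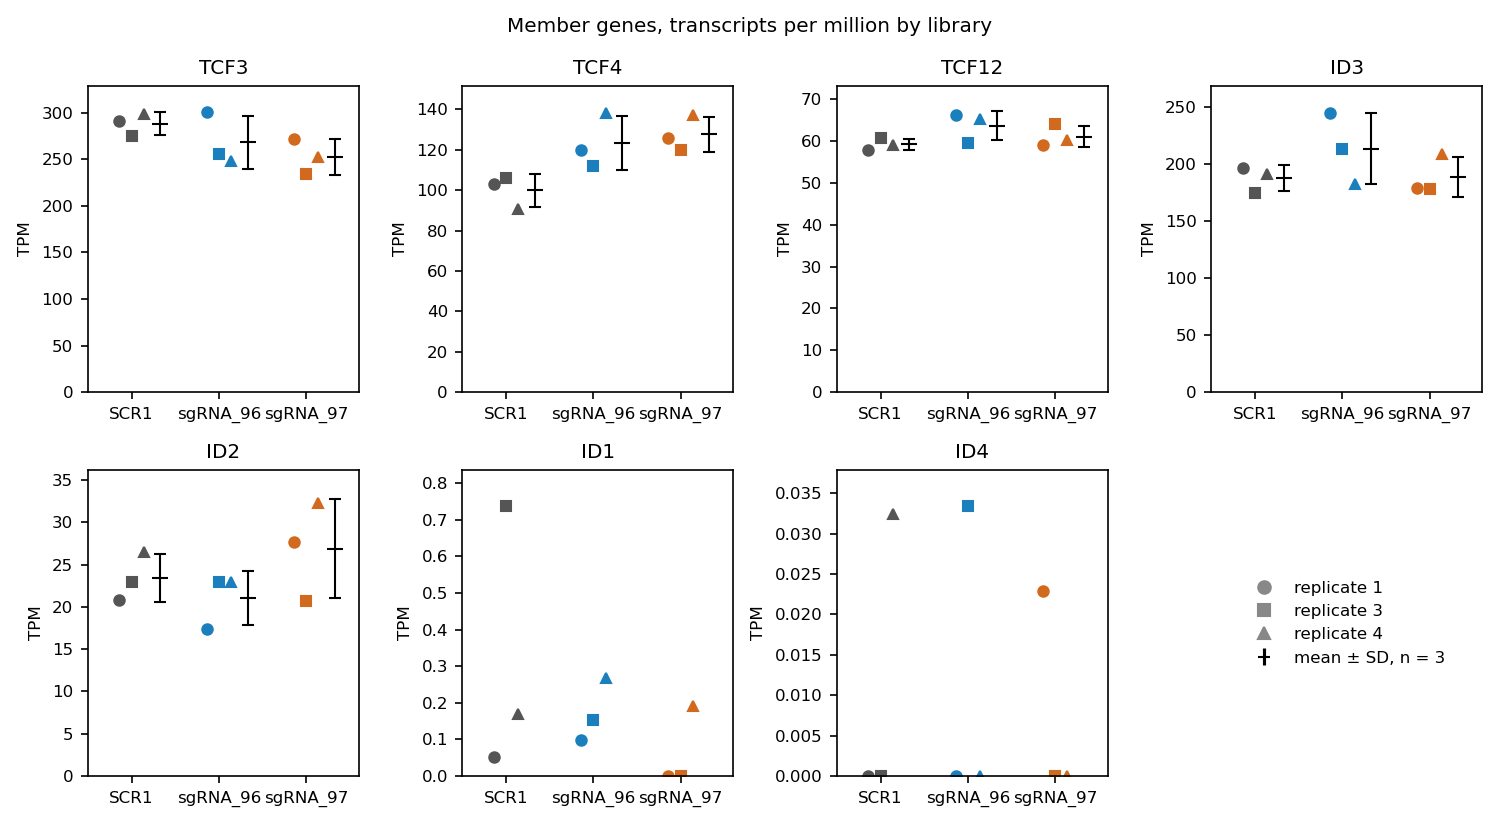
TPM of the 7 members in each library (vertical axes, each from 0) by guide (horizontal axes). Points are libraries, with shape for the replicate number, and bars are the mean ± SD of 3 libraries, left out for ID1 and ID4. Among these members, all 6 KO libraries lie above the 3 SCR1 libraries for TCF4 alone, and ID1 and ID4 stay below 1 TPM. The share of all genes that separate in TPM was not counted.

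TCF4 rose and TCF3 fell in the KO libraries, and TCF12, ID2 and ID3 did not pass the test. These are 1 higher and 1 lower call among the 5 members that passed the filter on low counts, in a comparison that called 20.7% of the 14436 genes tested (10.1% higher and 10.6% lower). With a share that large, these calls do not set the members apart from other genes.

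TCF4 encodes E2-2, the E protein best known from plasmacytoid dendritic cells. It lies on the minus strand (ENSG00000196628.20, chr18:55222185-55664787, hg38). TCF4 stood at 369, 386 and 366 CPM in SCR1 replicates 1, 3 and 4. It stood at 464, 476 and 514 CPM with sgRNA_96 and at 508, 480 and 491 CPM with sgRNA_97. Every KO library was above every SCR1 library, as the ranges of 20.3% of all genes tested did not overlap in either direction. The log2 fold change was 0.39 ± 0.04 (SE; adjusted p = 1.39e-05), a rise of 30.9%, and 14.4% of genes tested had a larger change in size. In TPM the groups did not overlap either, at 90.6 to 106 in SCR1 and 112 to 138 in KO. The share of all genes without overlap in TPM was not counted. The call held under all 17 alternatives, with adjusted p up to 0.0228.

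The rise was seen with each guide. TCF4 had a log2 fold change of 0.38 ± 0.05 with sgRNA_96 (adjusted p = 2.73e-04) and of 0.40 ± 0.05 with sgRNA_97 (adjusted p = 1.49e-04). These comparisons share the 3 SCR1 libraries, and called 11.2% and 15.1% of genes tested. The difference between the guides was 0.02 ± 0.05 (adjusted p = 1.000), in a comparison that called 0.0208% of genes. In limma on log2(TPM + 1) neither guide passed on its own, with 0.30 for sgRNA_96 (adjusted p = 0.0981) and 0.35 for sgRNA_97 (adjusted p = 0.0512).

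**Figure D2:**
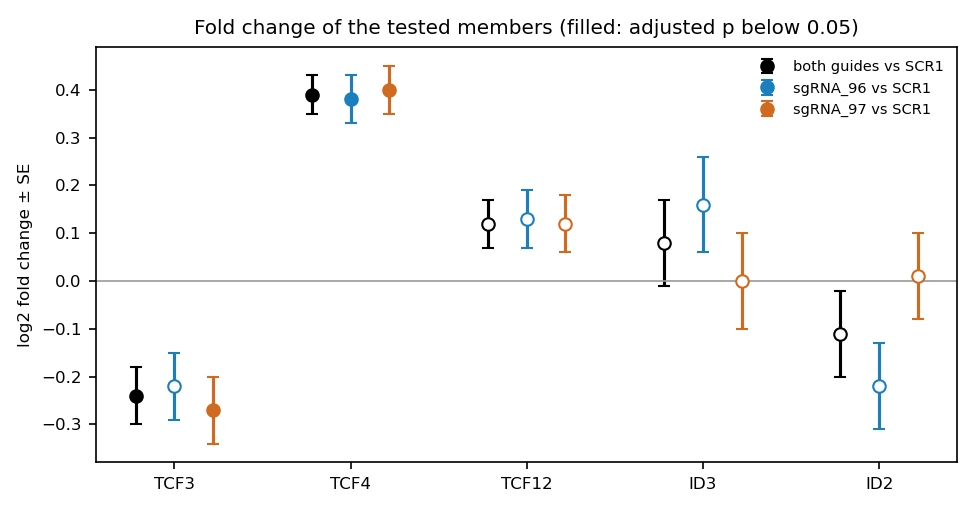
Log2 fold change ± SE against SCR1 (vertical axis) of the 5 tested members (horizontal axis), for both guides together and for each guide. Filled points have an adjusted p below 0.05. TCF4 lies at 0.38 to 0.40 in all 3 comparisons, and TCF3 at -0.22 to -0.27.

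The TCF4 counts were spread over 55 of 93 rows, and 3 rows held most of them. TCF4-276, which starts inside the gene and has no defined coding sequence, took 53.1% of the counts, and its log2 fold change was 0.14 ± 0.13 (adjusted p = 0.932). TCF4-289, a coding row with 2040 coding bases, stood at 29.6 to 44.1 CPM in SCR1 and 35.9 to 91.5 CPM in KO (log2 fold change 0.64 ± 0.28, adjusted p = 0.511). TCF4-284 was listed at 0 in all 3 SCR1 libraries. It held 350, 1979 and 1364 counts with sgRNA_96 and 383, 1007 and 260 counts with sgRNA_97. Its mean CPM in KO was 345 times a floor of 3 counts per SCR1 library (adjusted p = 0.0261 in the test on the counts as listed). That floor covers counting error only, so the ratio is not a lower bound. Of its bases, 94.4% also lie in TCF4-276, so its counts rest on how Salmon divided shared reads. Without this row TCF4 still stood at 380 to 482 CPM in KO against 366 to 386 CPM in SCR1, with 5 of 6 KO libraries above all SCR1 libraries.

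Among 61 member rows tested, 2 passed, both higher and both of TCF4, in a transcript comparison that called 0.633% of 54988 rows. The other was the retained-intron row TCF4-216, named after its values were seen, at 21.1 to 25.9 CPM in SCR1 and 31.8 to 38.8 CPM in KO (log2 fold change 0.59 ± 0.09, adjusted p = 0.0281). Neither call was stable. TCF4-284 lost it under 7 of 14 alternatives (adjusted p up to 0.0936, without SCR1 replicate 4), and without sgRNA_96 replicate 4 (0.0514), sgRNA_97 replicate 3 (0.0613), SCR1 replicate 1 (0.0789) or SCR1 replicate 3 (0.0754). TCF4-216 lost it under 11 of 14, among them 7 with a single library left out (adjusted p from 0.0515 without SCR1 replicate 3 to 0.143 without SCR1 replicate 4; 0.0569 without sgRNA_96 replicate 4; 0.0587, 0.0577 and 0.0658 without sgRNA_97 replicates 1, 3 and 4; and 0.13 without SCR1 replicate 1).

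**Figure D3:**
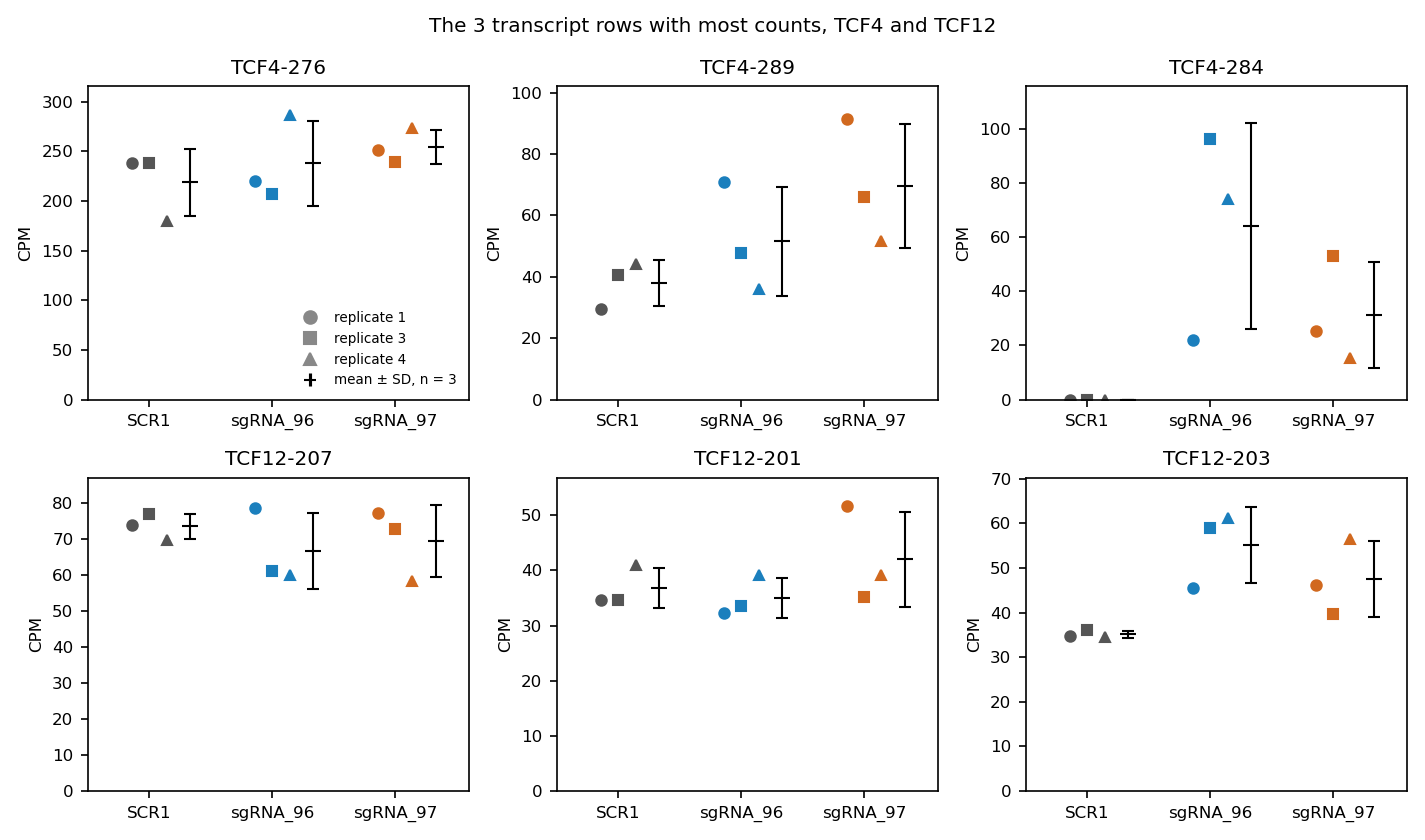
CPM by library (vertical axes, each from 0) of the 3 transcript rows with most counts of TCF4 (upper) and TCF12 (lower), by guide. Points are libraries and bars the mean ± SD of 3. TCF4-284 is at 0 in SCR1 and at 15.5 to 96.2 CPM in KO, and TCF12-203 lies above the SCR1 range in all 6 KO libraries.

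TCF3 stood at 428, 415 and 453 CPM in SCR1 replicates 1, 3 and 4. It stood at 421, 358 and 336 CPM with sgRNA_96 and at 355, 341 and 382 CPM with sgRNA_97. Of the KO libraries, 5 lay below all SCR1 libraries, and sgRNA_96 replicate 1 lay within their range. The log2 fold change was -0.24 ± 0.06 (adjusted p = 0.00986), a change of -15.5%. The call was lost without SCR1 replicate 4 (-0.21, adjusted p = 0.0721). It was also lost where transcript length entered the fit, with -0.15 in both cases (adjusted p = 0.209 with a length offset and 0.202 in limma on log2(TPM + 1)). In TPM the KO range, 234 to 301, took in the whole SCR1 range, 275 to 299.

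By guide, TCF3 changed by -0.27 ± 0.07 with sgRNA_97 (adjusted p = 0.0223) and by -0.22 ± 0.07 with sgRNA_96 (adjusted p = 0.0635) on the log2 scale. The difference between the guides was -0.05 ± 0.07 (adjusted p = 1.000). Without sgRNA_96 replicate 1 the change with sgRNA_96 passed (-0.32, adjusted p = 0.00447). The call with sgRNA_97 was lost without sgRNA_97 replicate 1 (0.0674) or 3 (0.107), or without SCR1 replicate 1 (0.0648) or 4 (0.106). Where transcript length entered the fit it was lost too, with -0.19 in both cases (adjusted p = 0.200 with a length offset and 0.185 in limma on log2(TPM + 1)).

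Of the 21 TCF3 rows, 12 held at least 1% of the gene's counts and 97.8% together. Rows with the E12 exon took 43.2% of TCF3 counts and rows with the E47 exon 45.5%. Rows with both exons took 2.80%, and rows with neither 8.46%. The longest rows of each form also held the most counts, TCF3-201 (E12, 30.0% of counts) and TCF3-211 (E47, 23.4%). Per length the shorter E47 row TCF3-214 stood higher than TCF3-211. It had 44.4 to 54.0 TPM in SCR1 and 40.3 to 52.5 TPM in KO, against 26.1 to 31.8 and 22.0 to 31.8 TPM for TCF3-211.

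E12 rows summed to 178, 201 and 205 CPM in SCR1, to 170, 156 and 133 CPM with sgRNA_96 and to 137, 152 and 177 CPM with sgRNA_97. All KO libraries were below all SCR1 libraries, where 20.3% of single genes tested had no overlap in either direction. E47 rows summed to 205, 175 and 204 CPM in SCR1, to 197, 159 and 161 CPM with sgRNA_96 and to 167, 149 and 165 CPM with sgRNA_97, and sgRNA_96 replicate 1 overlapped the SCR1 range. The E12 share of E12 and E47 counts was 50.0 ± 3.48% in SCR1 (SD, n = 3) and 48.1 ± 2.93% in KO (n = 6). The difference of -1.92 percentage points was within the spread between libraries (exact two-sided permutation test, p = 0.405, 84 arrangements). In the same libraries rows with neither exon summed to 29.2 to 34.9 CPM in SCR1 and 28.5 to 40.6 CPM in KO, so the groups overlapped.

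**Figure D4:**
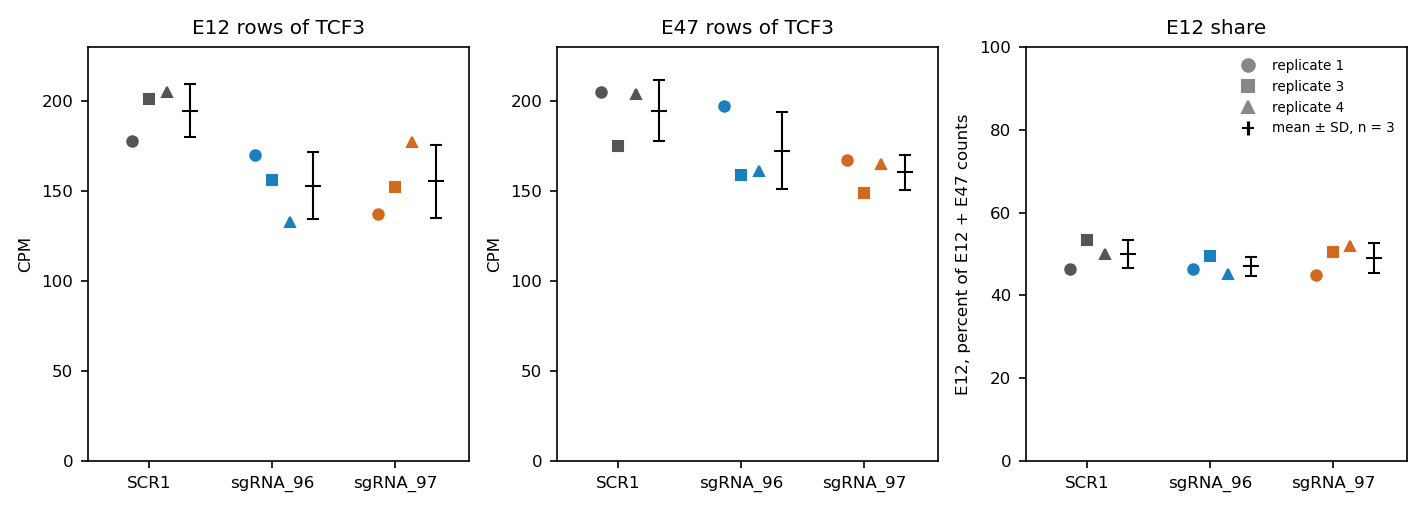
Summed CPM of the E12 rows (left) and E47 rows (middle) of TCF3, and the E12 share of E12 plus E47 counts in percent (right), by library and guide, with mean ± SD of 3 libraries. E12 CPM is lower in all 6 KO libraries than in SCR1, and the share lies between 45.0 and 53.4% in all 9.

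No single TCF3 row passed: 18 were tested, 12 with a negative and 6 with a positive fold change. Of the 18, 3 had an unadjusted p below 0.05, against 5387 of all 54988 rows tested. TCF3-203, an E47 row, stood at 32.2 to 46.0 CPM in SCR1 and at 20.4 to 29.9 CPM in KO (log2 fold change -0.61 ± 0.16, adjusted p = 0.177). TCF3-218, a retained-intron row with the E12 exon, stood at 15.8 to 22.8 CPM and 9.13 to 14.9 CPM (-0.72 ± 0.18, adjusted p = 0.153). The groups did not overlap in either row, as in 6.76% of all rows tested. Both rows passed in DESeq2 (adjusted p = 0.00943 and 0.00352), which called 5.40% of all rows. TCF3-201 had a log2 fold change of -0.38 ± 0.14 (adjusted p = 0.404), TCF3-211 one of -0.21 ± 0.12 (0.713) and TCF3-214 one of -0.20 ± 0.11 (0.648). TCF3-209, which covers only the 5′ part of the gene and has neither exon, had one of 0.08 ± 0.11 (0.999). The 6 remaining rows with 1% or more of the counts had adjusted p from 0.929 to 1.000.

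TCF12 encodes HEB, the third E protein (ENSG00000140262.18, plus strand, chr15:56918623-57299281, hg38). It stood at 158, 159 and 155 CPM in SCR1, at 171, 170 and 174 CPM with sgRNA_96 and at 187, 162 and 163 CPM with sgRNA_97. All KO libraries were above all SCR1 libraries (20.3% of genes tested had no overlap in either direction), but the log2 fold change was only 0.12 ± 0.05 (adjusted p = 0.0837), and it passed under none of 17 alternatives. In TPM 3 of 6 KO libraries lay above SCR1.

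The TCF12 row that starts inside the gene, TCF12-203, took 27.3% of the counts and encodes a shorter form, with 1536 coding bases against 2046 in TCF12-207. It stood at 34.7, 36.1 and 34.5 CPM in SCR1, at 45.5, 58.9 and 61.1 CPM with sgRNA_96 and at 46.3, 39.8 and 56.5 CPM with sgRNA_97. All KO libraries were above SCR1, and 6.76% of all rows tested separated in one direction or the other. The transcript test was not passed (log2 fold change 0.52 ± 0.14, adjusted p = 0.204). It was passed in DESeq2 (adjusted p = 0.0111), with 5.40% of all rows. The row with most counts, TCF12-207, had one of -0.15 ± 0.11 (adjusted p = 0.869), and TCF12-201 one of 0.03 ± 0.15 (adjusted p = 1.000). Grouped after their values were seen, the 3 rows that start in the window printed next made up 23.1 to 24.2% of TCF12 counts in SCR1 and 24.5 to 35.1% in KO. Rows from the upstream starts summed to 113 to 118 CPM in SCR1 and 102 to 140 CPM in KO.

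The internal start window of TCF12 is shown because these rows begin in it (chr15:57219180-57219479, plus strand, GRCh38.p14, RefSeq). Capitals mark matches to the E-box letters CANNTG, which read the same on both strands.
TCF12 internal promoter window: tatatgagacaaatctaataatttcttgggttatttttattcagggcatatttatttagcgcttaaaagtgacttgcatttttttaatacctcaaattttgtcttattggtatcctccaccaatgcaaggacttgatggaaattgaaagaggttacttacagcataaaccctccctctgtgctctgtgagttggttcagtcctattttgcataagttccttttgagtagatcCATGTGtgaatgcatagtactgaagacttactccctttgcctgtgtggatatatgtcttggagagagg
The window held 1 match to CANNTG, which 68.7% of 35116 RefSeq promoter windows of the same length hold. It held no CAGCTG (17.9% of windows) and neither CAGGTG nor its reverse complement CACCTG (20.6% of windows), both of which are kinds of CANNTG. Of the ID genes, the ID2 and ID4 windows each held 1 CAGCTG, and the ID1 and ID3 windows held no CANNTG. A match says only that these letters are present.

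Among the inhibitors, ID3 was the one expressed at a high level, with 86.5 to 93.4% of the ID TPM in each library. ID3 (ENSG00000117318.9, minus strand, chr1:23557926-23559501) stood at 117, 102 and 114 CPM in SCR1, at 144, 124 and 104 CPM with sgRNA_96 and at 105, 105 and 121 CPM with sgRNA_97. The groups overlapped, with 3 KO libraries above SCR1 and 3 within its range. The log2 fold change was 0.08 ± 0.09 (adjusted p = 0.556).

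ID2 (ENSG00000115738.10, plus strand, chr2:8678845-8684461), which opposes E proteins in innate lymphoid and natural killer cells, stood at 17.7, 19 and 20.2 CPM in SCR1. It stood at 15.3, 17.2 and 16.1 CPM with sgRNA_96 and at 18.8, 18.2 and 20 CPM with sgRNA_97. The sgRNA_96 libraries were all below SCR1 and the sgRNA_97 libraries all within its range. The log2 fold change was -0.11 ± 0.09 in KO (adjusted p = 0.442), and turned to 0.03 with the length offset and 0.01 in limma on TPM. Between the guides ID2 differed by 0.23 ± 0.09, higher with sgRNA_97 (adjusted p = 1.000). An antisense gene, ID2-AS1, overlaps ID2 exons and had a mean of 28.8 counts against 243 to 522 counts per library for ID2, and the strand setting of the counting is not given in the sources used here.

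ID1 (ENSG00000125968.9, chr20:31605283-31606515) and ID4 (ENSG00000172201.12, chr6:19837370-19842197) were near the limit of detection and were not tested. ID1 held 1, 8 and 3 counts in SCR1, and 0 to 3 counts in the KO libraries. ID4 held 2 counts in 1 SCR1 and 1 KO library, 1 count in another KO library and 0 in the rest. A difference in either was not detectable at this depth.

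Set side by side per length, the E protein genes summed to 442 to 452 TPM in SCR1 and to 417 to 488 TPM in KO, and the ID genes to 198 to 218 and 199 to 263 TPM. The ID sum was 44.8 to 48.5% of the E protein sum in SCR1 and 45.3 to 55.2% in KO. Within the E protein TPM, TCF3 made up 62.3 to 66.7% in SCR1 and 54.9 to 61.8% in KO, without overlap. TCF4 made up 20.2 to 24.0% and 24.7 to 30.6%, also without overlap, and TCF12 12.8 to 13.7% and 13 to 15.4%. In CPM, which does not correct for length, the E protein genes summed to 955 to 974 in SCR1 and to 983 to 1056 in KO, without overlap. Of single genes tested, 20.3% had CPM ranges that did not overlap, in either direction. The shares of TCF3, TCF4 and TCF12 add up to the whole, so a higher share of one means a lower share of the others. TCF3 by itself overlapped in TPM, at 275 to 299 in SCR1 and 234 to 301 in KO. These sums and shares restate the gene levels above and were not tested.

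Of the 49 listed partners and cofactors of E proteins, 12 passed the filter, and 2 were called higher and none lower at the gene level. That is 16.7% called against 20.7% of all genes, with a median log2 fold change of 0.11 against 0.00. A positive fold change was seen in 10 of the 12, against 7297 of all 14436 genes tested, a difference that was not tested. LMO2, the adaptor that joins E protein and TAL1 or LYL1 dimers to LDB1, rose from 102 to 109 CPM in SCR1 to 146 to 157 CPM in KO (log2 fold change 0.56 ± 0.04, adjusted p = 6.77e-07). CBFA2T3, an ETO family corepressor that binds E proteins, rose from 28.6 to 30.3 CPM to 33.9 to 42.3 CPM (0.41 ± 0.07, adjusted p = 5.68e-04), a call lost with the length offset (adjusted p = 0.259) and in limma on TPM (0.279). LDB1 (0.14 ± 0.06, adjusted p = 0.11) and the coactivator EP300 (0.12 ± 0.07, adjusted p = 0.224) had the highest CPM of the list beside LMO2 and did not pass. LDB1 passed without sgRNA_97 replicate 1 (adjusted p = 0.0193) and without both replicate 1 KO libraries (0.0211). Most tissue-restricted bHLH partners were below the filter.

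All 20 listed E protein targets of B cell precursors were tested, and 7 were called higher and 1 lower. That is 40.0% called against 20.7% of all genes, with a median log2 fold change of 0.01. This list, like the other lists, was chosen with earlier results of these data known, and the difference in share was not tested. RAG1, a subunit of the recombinase of antigen receptor genes, rose from 256 to 293 CPM in SCR1 to 442 to 528 CPM in KO (0.87 ± 0.06, adjusted p = 1.09e-07). FOXO1, a transcription factor that activates the RAG genes, rose by 0.37 ± 0.05 on the log2 scale (adjusted p = 1.57e-04), and BLNK, an adaptor of pre-B cell receptor signalling, by 0.34 ± 0.05 (adjusted p = 2.94e-04). DNTT, which adds untemplated nucleotides at V(D)J joints, rose from 2041 to 2131 CPM to 2279 to 2560 CPM (0.26 ± 0.04, adjusted p = 3.28e-04). IRF4, a factor of pre-B and plasma cells, fell from 76.6 to 77.5 CPM to 56.8 to 69.9 CPM (-0.28 ± 0.06, adjusted p = 0.00419). The surrogate light chain gene IGLL1 (-0.18 ± 0.06, adjusted p = 0.0543) and LEF1 (0.02 ± 0.03, adjusted p = 0.798) did not pass. IGLL1 passed in DESeq2 (adjusted p = 0.0286), with no filter (0.00181), without sgRNA_96 replicate 1 (0.0156) and without both replicate 1 KO libraries (0.033). The IRF4 call was lost in limma on log2(TPM + 1) (adjusted p = 0.0557).

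Of 27 listed BMP-SMAD and EGR genes, which act upstream of the ID genes in many cells, 15 were tested, 2 were called higher and 3 lower (33.3% called against 20.7% of all genes, median log2 fold change 0.08). EGR1, an immediate early factor that induces ID3 downstream of antigen receptors, fell from 7.37 to 7.88 CPM in SCR1 to 2.32 to 3.63 CPM in KO (-1.40 ± 0.15, adjusted p = 1.14e-05). ENG, a coreceptor for BMP ligands, rose from 118 to 132 CPM to 154 to 182 CPM (0.41 ± 0.05, adjusted p = 6.80e-05). NOG, a secreted BMP antagonist, fell from 15.3 to 19 CPM to 12 to 13.6 CPM (-0.44 ± 0.09, adjusted p = 0.00244). SMAD6, an inhibitory SMAD, fell from 1.97 to 2.74 CPM to 0.868 to 1.65 CPM (-0.81 ± 0.26, adjusted p = 0.0407), and the receptor BMPR2 rose by 0.16 ± 0.05 (adjusted p = 0.0457). These last calls sat at the threshold and were lost under 13 and 12 of 17 alternatives. SMAD6 lost it without any single library other than sgRNA_97 replicate 1 (adjusted p from 0.05, above the threshold before rounding, to 0.167). BMPR2 lost it without sgRNA_96 replicate 3, sgRNA_97 replicate 1 or 3, or any SCR1 library (adjusted p from 0.0527 to 0.164). SMAD4 (0.05 ± 0.06, adjusted p = 0.587) and SMAD5 (0.11 ± 0.05, adjusted p = 0.0995), the most abundant members of the list beside ENG, did not pass.

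**Figure D5:**
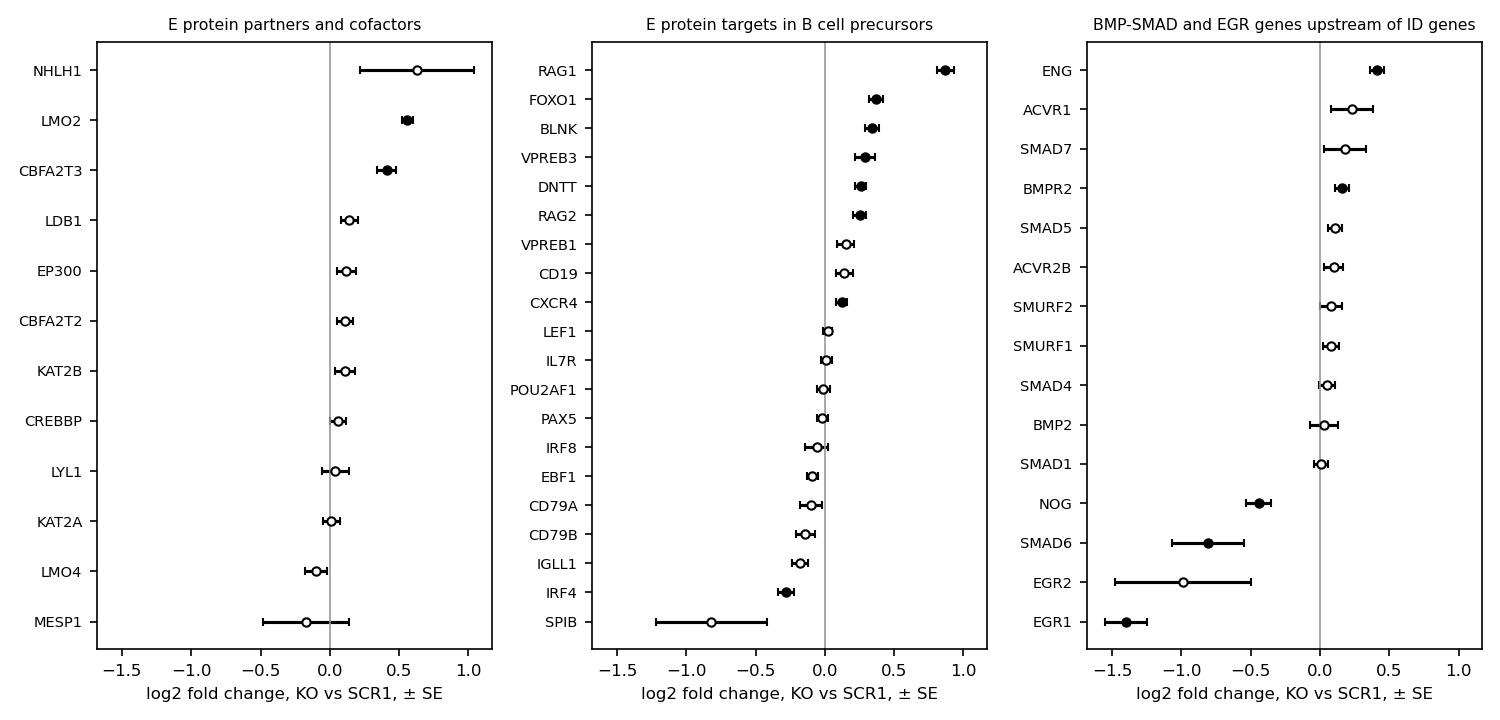
Log2 fold change ± SE in KO against SCR1 (horizontal axes) of every tested gene in the 3 lists, ordered by size. Filled points have an adjusted p below 0.05. RAG1 (0.87) and LMO2 (0.56) lead the targets' and partners' calls, and EGR1 (-1.40) has the lowest value.

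Over the 9 libraries, the genes most like TCF3 in log2 CPM were BCL7B (Pearson r = 0.992), SAPCD2 (r = 0.988) and KHSRP (r = 0.987), of 12961 genes with a mean of at least 1 CPM. For ID3 they were PTGES2 (r = 0.967), DGKZ (r = 0.967) and ATF6B (r = 0.953). These values describe 9 libraries that share 3 groups and the same scaling.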

How the data were processed

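RNA of 9 HAL-01 libraries was sequenced by the authors (poly(A) TruSeq libraries), aligned with STAR to hg38 and quantified with Salmon 1.10.1 (submitters' processing notes). The authors deposited estimated counts per transcript, not normalized, of which 87.8% of those above 0 were not whole, and TPM, abundances per length scaled to 1000000 per library. All 252835 transcript identifiers matched GENCODE release 44. Salmon divides reads that match several transcripts, so rows of one gene share error.

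Counts were summed per gene, rounded, filtered with filterByExpr (minimum count 10) and scaled by TMM. The main test was edgeR's quasi-likelihood F test (edgeR 4.0.16, R 4.3.3). Its p-values were adjusted over all genes, or all transcripts, by Benjamini-Hochberg, with a threshold of 0.05, and they are the adjusted p-values printed unless another tool is named. KO against SCR1 used 6 against 3 libraries, and each guide came from a fit of 3 groups. Alternatives were DESeq2 1.42.0 (the study's tool), limma 3.58.1 on log2(TPM + 1) and log2(TPM + 0.1), another scaling, no filter, a length offset, a replicate block and libraries left out. No library duplicated another of its own group, since chi-square per degree of freedom was at least 4.38 in every pair of replicates within a group. The E12 share was tested by exact permutation (SciPy 1.17.1, 84 arrangements).

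Named genes were the members, TCF3 rows with at least 1% of its counts, the 3 largest TCF4 and TCF12 rows, up to 4 called genes per direction and the 3 most abundant of each list, MEF2C, HLF and the 3 genes most correlated with TCF3 and ID3 (log2(CPM + 0.5)). Members and lists were chosen with earlier results of these data known. The KO against SCR1 tests were tried on simulated counts, with planted changes larger than the gene-level changes of the members. The outcome of that trial is not given here, and it bears on none of the calls above. The floor of 3 counts covers counting error only. The sequences of the TCF3 exons are not reported here.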

Additional observations from a re-analysis of the deposited data

Results flagged for a closer look

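Dixon's criterion was applied to 45 values across the KO libraries. In 6 of them 1 library stood far from the other 5, which chance gives in about 1 of 20 groups. sgRNA_96 replicate 1 was apart in 3 of them: RAG1 at 442 CPM against 503 to 528 in the others, DNTT at 2279 CPM against 2456 to 2560, and the TCF3 row TCF3-202 at 37.8 CPM against 14.2 to 19. sgRNA_97 replicate 1 was apart for MEF2C, at 553 CPM against 495 to 510, and for the row TCF12-201, at 51.6 CPM against 32.3 to 39.2. sgRNA_97 replicate 3 was apart for LMO2, at 146 CPM against 154 to 157. No gene sum of TCF3, TCF4, TCF12, ID2 or ID3 was flagged, and neither was the E12 share.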

How the results depend on the processing

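The counts of genes called in KO, 2984, were 1240 and 1246 in limma on log2(TPM + 1) and log2(TPM + 0.1), 1524 with the length offset and 1503 to 3547 with 1 library left out. For sgRNA_96 these were 448, 451, 663 and 743 to 1989 (1615 as reported), for sgRNA_97 706, 706, 924 and 987 to 1791 (2181 as reported). Between the guides 3 genes were called, against 8 in DESeq2, 106 with no filter, 1 with the replicate block or the length offset, 0 in both limma fits (626 and 600 genes at an unadjusted p below 0.05) and 1 to 3 with 1 library left out. For transcripts, 348 were called, against 2972 in DESeq2, 142 with no filter, 171 with the replicate block, 223 in limma, 55 to 401 with 1 library left out and 213 without sgRNA_96 replicate 1 and sgRNA_97 replicate 1, a choice made after seeing the data. The cause of these differences was not tested. Of the lists, partners gave 1 call in both limma fits and with the length offset, and 2 to 3 with 1 library left out. BMP-SMAD and EGR genes gave 3 with no filter, in both limma fits, with the length offset and without both replicate 1 libraries, and 3 to 4 with 1 left out. Targets, with 8 calls as reported, gave 6 in both limma fits, 10 in DESeq2 and without both replicate 1 libraries, and 7 to 9 with 1 library left out.

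The E12 share difference lay between -3.67 and -0.19 percentage points with 1 library left out. Deviations of libraries with equal replicate numbers had r from -0.084 to 0.065, against -0.069 to 0.114 for different numbers. Whether equal numbers were cultured or handled together is not stated in the sources used here. With the replicate block the E12 share gave p = 0.370 (exact permutation test, 27 arrangements). Changes of sign concerned differences that did not pass. ID2 in KO was 0.01 in both limma fits and 0.03 with the length offset. ID2 with sgRNA_97 was -0.01 with no filter and -0.05 to 0.19 over its alternatives. ID3 with sgRNA_97 was 0.00 with the replicate block, 0.01 in both limma fits and with the length offset, and -0.08 to 0.03 over all. Between the guides TCF3 lay between -0.12 and 0.05, TCF4 between -0.01 and 0.07, and TCF12 between -0.08 and 0.03 (0.02 without sgRNA_97 replicate 4) with 1 library left out. Of the rows, TCF3-220 was 0.39 with the replicate block and 0.10 in limma, and -1.04 to 0.96 over all, TCF3-204 -0.25 to 0.58, TCF3-213 -0.38 to 0.01 (-0.24 to 0.01 with 1 library left out), and TCF12-201 -0.03 without both replicate 1 libraries and -0.07 to 0.11 over all. LEF1 turned at the third decimal. MEF2C passed in DESeq2 (adjusted p = 0.027), without sgRNA_97 replicate 1 (0.0143) and without both replicate 1 libraries (0.0164). HLF passed in DESeq2 (0.0331) and without sgRNA_96 replicate 1 (0.0477) or 4 (0.0172).

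Depth limits ID1 and ID4, and the spread of transcript estimates limits the TCF3, TCF4 and TCF12 rows.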
